A study of Mus musculus with 6 samples.

Results

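Surface adhesion genes of 3 kinds were followed in E0771, a mammary tumour line from the C57BL/6 mouse strain: adhesion molecules built from immunoglobulin domains (Icam1, Icam2, Vcam1, Mcam, Alcam and Cadm1), the hyaluronan receptor Cd44, and the tetraspanins Cd9, Cd82 and Cd151. These 10 genes, of 18193 that the array annotation names, were grouped by function and chosen with earlier results of these data known. Each was read from its probe set with the highest mean log2 signal. Unselected parental cells (3 arrays) were compared with HML2 cells (3 arrays), a population carried through 2 rounds of growth in the mammary fat pad of C57BL/6 mice and recovery from the lung. Neither group had a drug treatment or an engineered allele, and both were cultured for 3 days in DMEM with 10% fetal bovine serum and antibiotics before lysis. The sources used here do not say whether HML2 cells came from 1 animal or several or went through a clonal step. The labels call the 3 arrays of a group biological replicates without naming separate cultures, so the p-values reflect only how these samples spread, which may be technical.

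Immunoglobulin-type adhesion molecules reach out from the cell surface to a partner on a neighbouring cell. Icam1, Icam2 and Vcam1 are bound by integrins of leukocytes, whereas Mcam, Alcam and Cadm1 also bind their own kind or related molecules on other tumour, endothelial or nerve cells. Cd44 binds hyaluronan and is tied to the actin cytoskeleton through ezrin, radixin and moesin, and its transcript is spliced in many forms. Tetraspanins span the membrane several times and gather integrins and other partners into shared patches, and Cd82 is best known as a gene whose loss accompanies metastasis.

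The array signals had been scaled to an equal trimmed mean of 500.003 on each array, and a signal of 100 was reached by 39.6% to 41.5% of probe sets. In this share all parental arrays lay above all HML2 arrays (means 41.0% and 39.9%, exact two-sided permutation p = 0.1). Bacterial tryptophan controls, which have no target in mouse RNA, read 1.97 to 36.2 and mark the background. The 3' over 5' ratio of control probe sets, a gauge of RNA integrity, was 0.770 to 0.816 for Gapdh (exact two-sided permutation p = 0.7) and 1.36 to 1.53 for beta-actin, with all parental arrays above all HML2 arrays (p = 0.1, the smallest that 3 against 3 arrays allow). Of the epithelial markers of the labelled mammary origin, Krt8 was well expressed and higher in HML2 cells (1095 in parental and 4175 in HML2 cells; limma adjusted p = 8.1e-05). Epcam was dim and lower on average in HML2 cells (133 and 83.5; limma adjusted p = 0.12). Krt18, Krt19, Cdh1, Krt5, Krt14, Elf5 and Gata3 had group means below 100. Precision is limited by how few arrays there were, and in a bulk sample fewer cells with a transcript and less transcript per cell cannot be told apart.

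Differences are given as HML2 minus parental on the scale of log2(signal + 50), with the standard error of limma and a Benjamini-Hochberg adjusted p over all genes tested. Calls required an adjusted p below 0.05. Genes entered the test when their signals averaged 100 or more across the 6 arrays. Of the 10 genes, 6 met this bound (Icam1, Mcam, Cd44, Cd9, Cd82 and Cd151) and 4 did not (Icam2, Vcam1, Alcam and Cadm1). Mcam lay just inside it with a mean of 103, and Icam2 just outside with 91.6. The 4 dimmer genes were therefore read from a fit without the bound, over 18193 genes.

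Icam1 and Cd9 were called higher in HML2 cells and Mcam lower, whereas Cd44, Cd82 and Cd151 were not called by the probe sets read here. Icam2 was called higher in the fit without the bound. Across all genes tested, 12.3% were called higher and 14.9% lower, and 27.2% in either direction, against 3 of these 6 genes. In the fit without the bound the shares were 5.07% higher and 6.82% lower, against 3 higher and 1 lower of the 10. The median difference of the 6 tested genes was 0.33, beside -0.02 over all genes tested. With so few genes these counts describe the genes themselves and say nothing about adhesion molecules as a class. Since the genes were chosen with earlier results of these data known, the shares over all genes are no test of them.

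**Figure D1:**
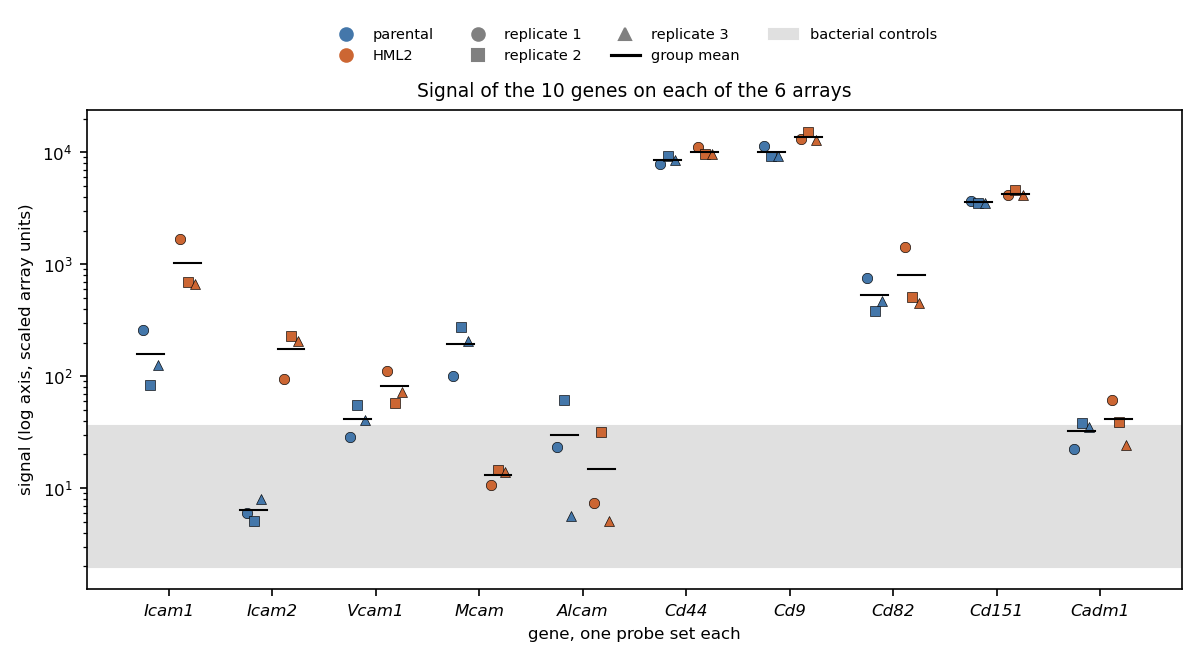
Signal of each of the 10 genes on every array, on a log axis in scaled array units; colours give the group, symbols the replicate number, black bars the group mean, and grey the range of bacterial controls (1.97 to 36.2). Icam2 in parental cells and Mcam in HML2 cells lie in the grey range, while Icam2 in HML2 cells (94.1 to 228) and Mcam in parental cells (101 to 273) lie above it.

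Icam1, the ligand of the leukocyte integrins LFA-1 and Mac-1 and a gene switched on by inflammatory signals, had signals of 260.0, 83.0 and 127 on parental arrays 1, 2 and 3 and of 1692, 698 and 666 on HML2 arrays 1, 2 and 3. Every HML2 array lay above every parental array, and array 1 was the highest in both groups. The means were 157 ± 92.2 and 1019 ± 584 (SD, n = 3). The log2 difference was 2.33 ± 0.40 (SE), with a 95% interval of 1.42 to 3.24 (limma adjusted p = 0.0039). Taken within each replicate number, the difference was 2.49, 2.49 and 2.02. Array 1 exceeded the mean of the other arrays by 1.02 in the parental group and by 1.25 in HML2 cells, on the log2 scale. Without HML2 array 1 the difference was 1.92, and without both arrays numbered 1 it was 2.25, called in each case (limma adjusted p = 0.0016 and 1.2e-05).

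The Icam1 promoter is shown because Icam1 was called higher in every alternative and its human counterpart carries a known NF-kB site in this region. The RefSeq promoter table (GRCm38.p6) held 7 of the 10 genes, Icam2, Vcam1 and Cadm1 not among them. The 250 bases before the Icam1 start lie at chr9:21015690-21015939 on the plus strand. Capitals mark a match to GGAANNTCC, letters that also stand in the human ICAM1 site and that were searched for after the sequence had been seen.
Icam1: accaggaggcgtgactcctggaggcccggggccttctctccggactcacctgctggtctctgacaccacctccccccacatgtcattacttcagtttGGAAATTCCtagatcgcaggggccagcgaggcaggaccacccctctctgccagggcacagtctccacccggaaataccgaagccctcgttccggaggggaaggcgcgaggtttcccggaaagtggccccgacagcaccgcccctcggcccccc
Read on both strands, GGAANNTCC stood in 3.59% of 32851 promoter windows of this length, and in 1 of the 11 windows listed for the 7 genes. The planned pattern, the kappaB consensus GGRRNNYYCC (R for A or G, Y for C or T, N for any base), matched 9.55% of windows and not the Icam1 window. The capitals in the Icam1 window are thus not an instance of that consensus. The consensus also matched 1 of the 11, at an alternative start of Cd151, a gene that was not called. The Icam1 window held the E-box CANNTG at 2 places, as 66.2% of all windows held at least 1, and no AP-1 element TGANTCA (6.75% of all windows). A match of letters does not show that a factor bound there, and no binding was measured.

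Icam2, a further LFA-1 ligand that is typical of endothelial cells and platelets, read 5.99, 5.13 and 8.05 on the parental arrays, all inside the range of the bacterial controls. On the HML2 arrays it read 94.1, 228 and 208, with array 1 the lowest. The groups did not overlap, and the means were 6.39 ± 1.50 and 177 ± 72.2 (SD, n = 3). Set against the brightest bacterial control of each parental array, the geometric mean of the HML2 arrays was at least 6.95-fold higher. Icam2 failed the signal bound because its parental signals pulled the mean down to 91.6. In the fit without the bound its log2 difference was 1.95 ± 0.27 (SE; limma adjusted p = 0.0034), and the offset of 50 shrinks this value: it was 3.02 with an offset of 16 and 1.34 with an offset of 100. Icam2 thus rose from background level, on 1 probe set.

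Vcam1, which is bound by the integrin VLA-4, stayed dim. Its brightest probe set read 28.9, 55.5 and 40.7 on the parental arrays and 112, 58.2 and 72.7 on the HML2 arrays. The lowest HML2 value lay just above the highest parental value. In the fit without the bound the difference was 0.50 ± 0.22 (SE), with a 95% interval of -0.0083 to 1.02, and it was not called (limma adjusted p = 0.21). The other probe sets of Vcam1 had overlapping groups, with means of 43.8 and 73.4 for the second and 13.8 and 26.9 for the third in parental and HML2 cells. Leaving out both arrays numbered 1 lowered the difference of the brightest to 0.24. Icam1, Icam2 and Vcam1 were therefore all higher on average in HML2 cells, the first pair with a call and Vcam1 without one.

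Leukocyte and endothelial transcripts were read beside these ligands because both cell types carry Icam2. Of 11 leukocyte markers measured, Ptprc, Cd3e and Itgam were at or below the highest bacterial control on all 6 arrays, with means of 5.24 and 8.71 for Ptprc, the common leukocyte antigen, in parental and HML2 cells. The summed leukocyte list was 779 to 929 on parental and 1815 to 2311 on HML2 arrays. Laptm5 (311 and 1191) and the integrin gene Itgb2 (78.5 and 412) were called higher and Lyz2 (192 and 78.9) lower. Itgb2 passed the signal bound through its HML2 arrays alone and Lyz2 through its parental arrays alone. Their calls are therefore not independent of that bound. Of 10 endothelial markers, Pecam1, Tek, Tie1, Vwf and Emcn were at background on all arrays, and Pecam1 had means of 10.4 and 5.96. The endothelial sum was 704 to 967 on parental and 549 to 803 on HML2 arrays and overlapped between the groups. Egfl7 (516 and 371), Esam (99.8 and 94.0) and Kdr (68.6 and 53.5) were its brightest members, and Egfl7 carried most of it. Cdh5, which encodes VE-cadherin, read 32.1, 17.4 and 8.91 on the parental arrays and 56.4, 36.5 and 72.4 on the HML2 arrays. On HML2 array 2 Cdh5 was close to the highest bacterial control (36.2), so its order among the HML2 arrays is not interpreted. The groups of Cdh5 did not overlap, with HML2 above as for 13.3% of all genes without the bound. It was below the signal bound and not among the genes tested. Cldn5 was lower on average (47.8 and 30.8), with overlapping groups. The part of leukocyte and endothelial transcripts in the Icam2 result was not tested. Lung epithelial markers summed to 184 to 256 and 168 to 270 on parental and HML2 arrays. Their brightest were Sftpb (83.2 and 120.3), Sftpc (44.7 and 27.4) and Ager (37.3 and 5.68).

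Mcam, also called CD146, is a homophilic adhesion molecule of melanoma, endothelium and pericytes. The Mcam signals were 101, 273 and 205 on the parental arrays and 10.7, 14.5 and 14.0 on the HML2 arrays. All HML2 values were inside the range of the bacterial controls and below every parental value. Parental array 1 was the lowest of its group. The means were 193 ± 86.6 and 13.1 ± 2.04 (SD, n = 3), and against the brightest control of each HML2 array the parental geometric mean was at least 8.91-fold higher. The log2 difference was -1.88 ± 0.29 (SE), with a 95% interval of -2.53 to -1.22 (limma adjusted p = 0.0024). Within replicate numbers it was -1.31, -2.32 and -2.00. Because Mcam passed the signal bound through its parental arrays alone, its call in the filtered fit is not independent of that bound. Without the bound it was called as well (limma adjusted p = 0.0051), and a bound of 200 left it untested.

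The Mcam promoter window is shown for comparison, since Mcam was the 1 gene of the 10 that was called lower. It lies at chr9:44134408-44134657 on the plus strand, and capitals mark the cyclic AMP response element TGACGTCA, found after the sequence was seen.
Mcam: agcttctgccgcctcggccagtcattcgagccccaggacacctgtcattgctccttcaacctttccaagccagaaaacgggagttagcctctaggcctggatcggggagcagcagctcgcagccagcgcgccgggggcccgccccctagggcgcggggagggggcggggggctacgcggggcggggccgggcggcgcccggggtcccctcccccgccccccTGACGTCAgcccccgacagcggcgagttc
This element stood in 1.55% of all windows and was not found in the Icam1 window. The Mcam window held neither GGAANNTCC nor a kappaB consensus match. It was richer in G and C (73.6%) than the Icam1 window (65.2%).

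Pericytes and smooth muscle cells also carry Mcam, and the sum of their list was likewise lower in HML2 cells. The sum of 8 markers was 10524 to 21894 on parental arrays and 882 to 1475 on HML2 arrays. Acta2, smooth muscle actin, made up most of it (15281 and 482), Pdgfrb had means of 1323 and 592, and Rgs5, a pericyte gene, went from 306 to 41.1. Acta2 and Rgs5 were called lower. Rgs5 passed the signal bound through its parental arrays alone, so its call is not independent of that bound. Pdgfrb was not (limma adjusted p = 0.053), except with the replicate number as a block (0.0020). Cspg4 (41.0 and 55.0), Des (95.7 and 69.0) and Cnn1 (45.4 and 8.68) were below the signal bound, with overlapping groups. Of these, Cspg4 had the higher mean in HML2 cells. Tagln and Myh11, defining smooth muscle genes, were at background on all 6 arrays. The fibroblast list had sums of 22748 to 27913 on parental and 1257 to 1816 on HML2 arrays, led by Col3a1 (22628 and 602), Pdgfra (1954 and 873) and Col1a2 (109.7 and 66.9), of which the first pair was called lower. Col3a1 made up most of the parental fibroblast sum, and 2 of the 8 genes passed the signal bound. Below the bound, Postn (91.4 and 16.3), Col1a1 (71.8 and 20.8) and Lum (29.4 and 15.7) were lower on average. Dcn was not (23.2 and 23.6), and Thy1 was at background on all 6 arrays. The part of these lists in the Mcam result was not tested.

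Alcam, or CD166, which binds itself and the lymphocyte receptor CD6, and Cadm1, a nectin-like molecule described as a tumour suppressor, were at or near background in both groups. Alcam read 23.4, 61.4 and 5.68 on the parental arrays and 7.41, 32.1 and 5.05 on the HML2 arrays. Its groups overlapped, and array 2 was the highest in each. The difference was -0.27 ± 0.27 (SE), with a 95% interval of -0.88 to 0.34 in the fit without the bound (limma adjusted p = 0.61). Its sign depended on the probe set: further probe sets of Alcam gave 0.14, 0.39, 0.10 and -0.056, untested. The mean over its probe sets gave 0.061. Cadm1 read 22.6, 38.4 and 35.3 and then 61.9, 39.0 and 24.4, with a difference of 0.15 ± 0.20 (SE; interval -0.31 to 0.60, limma adjusted p = 0.73). Across the 13 probe sets of Icam2, Vcam1, Alcam and Cadm1, 59 of 78 array values were at or below the highest bacterial control. A difference in Alcam or Cadm1 was not detectable at these signals.

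**Figure D2:**
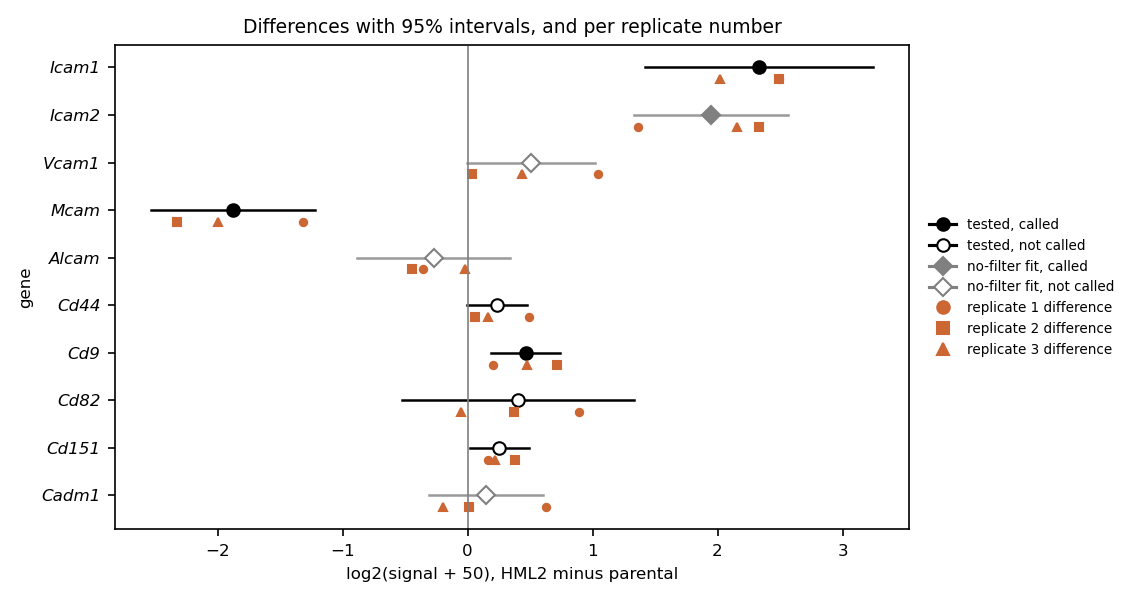
Difference of each of the 10 genes on the log2(signal + 50) scale, HML2 minus parental, with its 95% interval; grey diamonds come from the fit without the signal bound, and orange symbols give the difference within each replicate number. Icam1 (1.42 to 3.24) and Mcam (-2.53 to -1.22) have intervals far from 0, and the orange values of Cd82 spread from -0.05 to 0.89; the Icam1 symbols of replicates 1 and 2 coincide at 2.49.

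Cd44 had signals far above background in both populations. Its brightest probe set read 7936, 9249 and 8610.4 on the parental arrays and 11155, 9667 and 9631 on the HML2 arrays. The groups did not overlap, although the lowest HML2 value was close to the highest parental value. The log2 difference was 0.24 ± 0.11 (SE), with a 95% interval of -0.0041 to 0.48, and it was not called (limma adjusted p = 0.13). The interval leaves out an increase of 1 on the log2 scale.

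Other probe sets of Cd44 did not give the same size of difference. The second brightest read 6525, 5595 and 6812 and then 9572, 7690.4 and 6852, a difference of 0.34 ± 0.14 that was not called (limma adjusted p over all probe sets = 0.12). The third read 621, 957 and 748 on the parental and 1515, 1422 and 1295 on the HML2 arrays. That probe set was called higher, with a difference of 0.84 ± 0.17 (limma adjusted p over all probe sets = 0.0083), and the call held when any single array was left out (highest adjusted p = 0.042). Over all probe sets tested, 10.7% were called higher and 13.5% lower. Which transcripts each probe set detects is not given in the sources used here. With the mean of its probe sets in place of the brightest, Cd44 was called higher (0.47, limma adjusted p = 0.020). The fourth probe set read 1.46 to 14.1, at background.

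Cd9, a tetraspanin that associates with integrins and is abundant on extracellular vesicles, rose modestly. Its signals were 11465, 9315 and 9171 on the parental arrays and 13243, 15296 and 12786 on the HML2 arrays, with no overlap. The means were 9984 ± 1285 and 13775 ± 1337 (SD, n = 3), a log2 difference of 0.47 ± 0.12 (SE; interval 0.19 to 0.74, limma adjusted p = 0.022). The call was lost without parental array 2 (adjusted p = 0.071), parental array 3 (0.095) or HML2 array 2 (0.076), when the difference was 0.39 to 0.42, which left Icam1 alone (1 of the 10) called higher in the filtered fit. With both arrays numbered 1 left out it was 0.59 (limma adjusted p = 0.0022).

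Cd82, or KAI1, was not called. It read 752, 380.0 and 468 on the parental arrays and 1440.05, 508 and 450.0 on the HML2 arrays, and the groups overlapped. Array 1 was the highest in both groups, above the mean of the others by 0.76 in parental and by 1.50 in HML2 cells on the log2 scale. The difference was 0.41 ± 0.41 (SE), with a wide interval of -0.52 to 1.34 (limma adjusted p = 0.50). Within replicate numbers it was 0.89, 0.38 and -0.05. Without HML2 array 1 the difference was -0.093, and without both arrays numbered 1 it was 0.16 (limma adjusted p = 0.46). A second, dimmer probe set read 22.1, 151 and 145 and then 117, 33.5 and 166, with a difference of 0.03 ± 0.46. Neither probe set of Cd82 gave a lower level in HML2 cells that passed the test.

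Cd151, the tetraspanin that binds laminin-binding integrins most tightly, read 3679, 3505 and 3523 on the parental arrays and 4129.6, 4569 and 4113 on the HML2 arrays. Every HML2 array exceeded every parental array, by a small margin. The log2 difference was 0.25 ± 0.10 (SE; interval 0.02 to 0.49) and was not called after adjustment (limma adjusted p = 0.11). It was called with array weights (0.015) and without both arrays numbered 1 (0.042). Of its 6 probe sets, 4 passed the signal bound. All 4 had groups that did not overlap, with differences of 0.13 to 0.25 and no call. Among the 10 genes, groups without overlap were seen for 6 with HML2 above (Icam1, Icam2, Vcam1, Cd44, Cd9 and Cd151) and 1 with HML2 below (Mcam), while 13.3% and 16.6% of all genes without the bound were ordered in these ways. For the 6 tested genes it was 5, beside 44.4% of all tested genes.

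**Figure D3:**
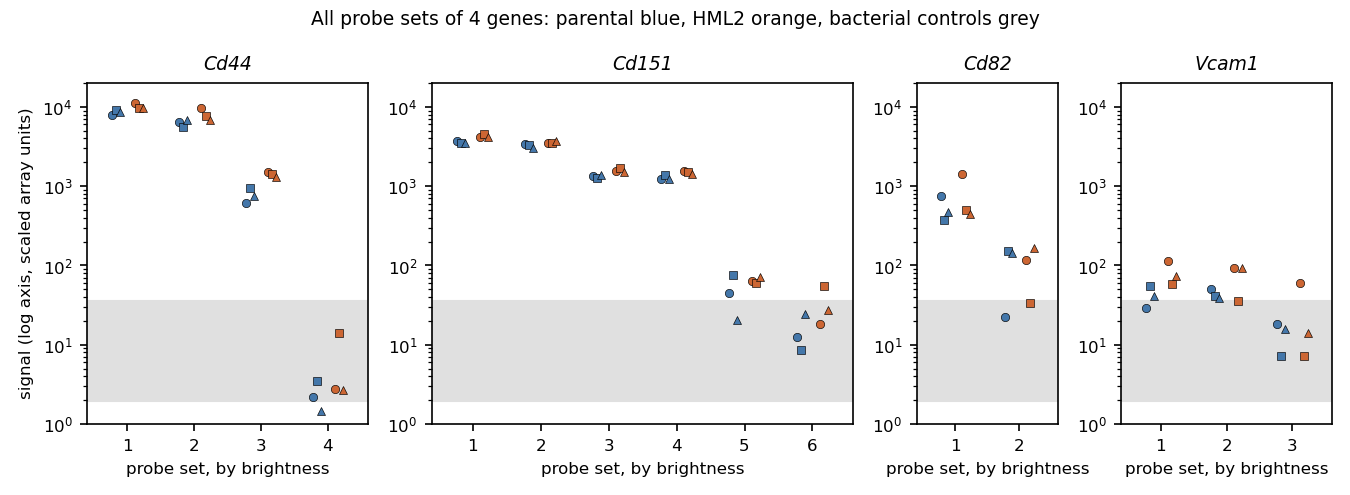
Signals on a log axis for all probe sets of Cd44, Cd151, Cd82 and Vcam1, ordered by brightness, with parental arrays in blue, HML2 arrays in orange and the same replicate symbols as above; grey is the range of bacterial controls. The third Cd44 probe set reads 621 to 957 in parental and 1295 to 1515 in HML2 cells, while the groups overlap in both probe sets of Cd82.

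Other genes of the same families were read from lists assembled from general knowledge, with earlier results of these data known. Of 47 immunoglobulin-type adhesion genes, 45 were on the array and 16 were tested. Called were 2 higher and 5 lower, and the median difference was -0.14 (-0.36 to -0.0088 over all alternatives), beside -0.02 over all genes. Besides Icam1, the higher gene was Pvr, a nectin-like poliovirus receptor (389 ± 154 and 2076 ± 1943; 1.97). Besides Mcam, the lower genes were Cdon, a hedgehog co-receptor (3410 ± 172 and 301 ± 162; -3.41), Cd99l2 (-2.28), the junction protein gene Clmp (-1.23) and Nptn, or neuroplastin (-0.65). The call of Pvr was lost without parental array 2 or 3, and that of Nptn without parental array 3. Pvr had a difference of 1.26 without HML2 array 1. Cd47, the brightest gene of the list that was not called, had a difference of 0.18.

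Among 31 tetraspanin genes, 12 were tested, of which 2 were called higher and 3 lower, with a median of -0.22 (-0.38 to 0.0027 over all alternatives). Tspan14 was higher (157 ± 20.1 and 313 ± 40.0; 0.81). The lower genes were Tspan3 (2609 ± 169 and 1118 ± 108; -1.19), Tspan33 (-0.64) and Tspan4 (-0.55). Only 3 tetraspanins were called, in either direction, without parental array 2, parental array 3, HML2 array 2 or HML2 array 3. Tspan33 lost its call without any array but HML2 array 1, and Tspan4 without HML2 array 3. Cd9 and Tspan14 were thus the tested tetraspanins with a called increase.

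Of 12 tetraspanin partners tested, 4 were called higher and 2 lower, with a median of -0.02 (-0.23 to 0.068 over all alternatives). The laminin-binding integrin gene Itga6 (1268 ± 171 and 5329 ± 1566; 2.00), the growth factor gene Hbegf (1.16), and Itga3 (0.50) and Itgb1 (0.44), which encode an integrin pair, were higher. The growth factor receptor gene Egfr (-1.23) and the sheddase gene Adam10 (6288 ± 530 and 3092 ± 135; -1.01) were lower. Without any 1 of the parental arrays only 3 of these genes were called, and Hbegf, Itga3 and Itgb1 lost their calls. Itga3 also lost its call without HML2 array 2 or 3, and Itgb1 without HML2 array 3. Without the signal bound Hbegf, Itga3 and Itgb1 were not called, nor were Hbegf and Itgb1 without the intensity trend or with the mean over probe sets. That mean gave Itgb1 a difference of 0.16 (limma adjusted p = 0.38), and 1 of its 3 probe sets had the opposite sign. Egfr was -0.61 with the mean over probe sets and stayed called. Hbegf had a difference of 0.65 without HML2 array 1.

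Genes around Cd44 and hyaluronan mostly did not change beyond the test, with 1 higher and 1 lower of 12 and a median of -0.05 (-0.17 to 0.040 over all alternatives). Ezr, or ezrin, which links Cd44 and Icam molecules to actin, was higher (2440 ± 594 and 6167 ± 1274; 1.33), although 1 further probe set of Ezr had the opposite sign without a call and the mean over probe sets was 0.66. Versican, a hyaluronan-binding matrix proteoglycan encoded by Vcan, was lower (1258 ± 383 and 293 ± 45.3; -1.89). Moesin (Msn, -0.05) and radixin (Rdx, -0.38) were not called, though Rdx was with the replicate number as a block (limma adjusted p = 0.015). Without HML2 array 1, 5 genes of this list were called, while the count over all genes tested went from 2550 to 3422.

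Counter-receptors and cytoplasmic anchors of these molecules had 5 higher and 0 lower genes of 11 tested, with a median of 0.30. That median was 0.18 without parental array 1, 0.16 with the mean over probe sets, 0.16 with a signal bound of 200 and 0.026 over the 21 genes read without a bound. By limma at an unadjusted p below 0.05 the counts were likewise 5 and 0. In the other lists the higher and lower counts were 3 and 6 (immunoglobulin-type genes), 3 and 3 (tetraspanins), 4 and 5 (tetraspanin partners), and 1 and 2 (CD44 and hyaluronan). The share of all genes at that threshold is not given here. Itgb2, the beta chain of the integrins that bind Icam1 and Icam2, was higher (78.5 ± 49.0 and 412 ± 163; 1.86), as were Itgb7 (148 ± 88.4 and 607 ± 189; 1.79), Crtam, a partner of Cadm1 (1.63), Ezr and Itgb1. The alpha chains Itgal and Itgam, with which Itgb2 pairs, did not reach the signal bound. Crtam read 30.8, 23.0 and 34.2 on the parental arrays, inside the range of the bacterial controls, and passed the bound through its HML2 arrays alone (315, 154 and 147), as Itgb2 did. Their calls in the filtered fit are therefore not independent of the bound. Both were also called without it (limma adjusted p = 0.0074 for Crtam and 0.0099 for Itgb2). None of the calls of Itgb2, Itgb7, Crtam and Ezr was lost when a single array was left out. Percentages called in these 5 lists ran from 16.7% to 50%, beside 27.2% of all genes tested.

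**Figure D4:**
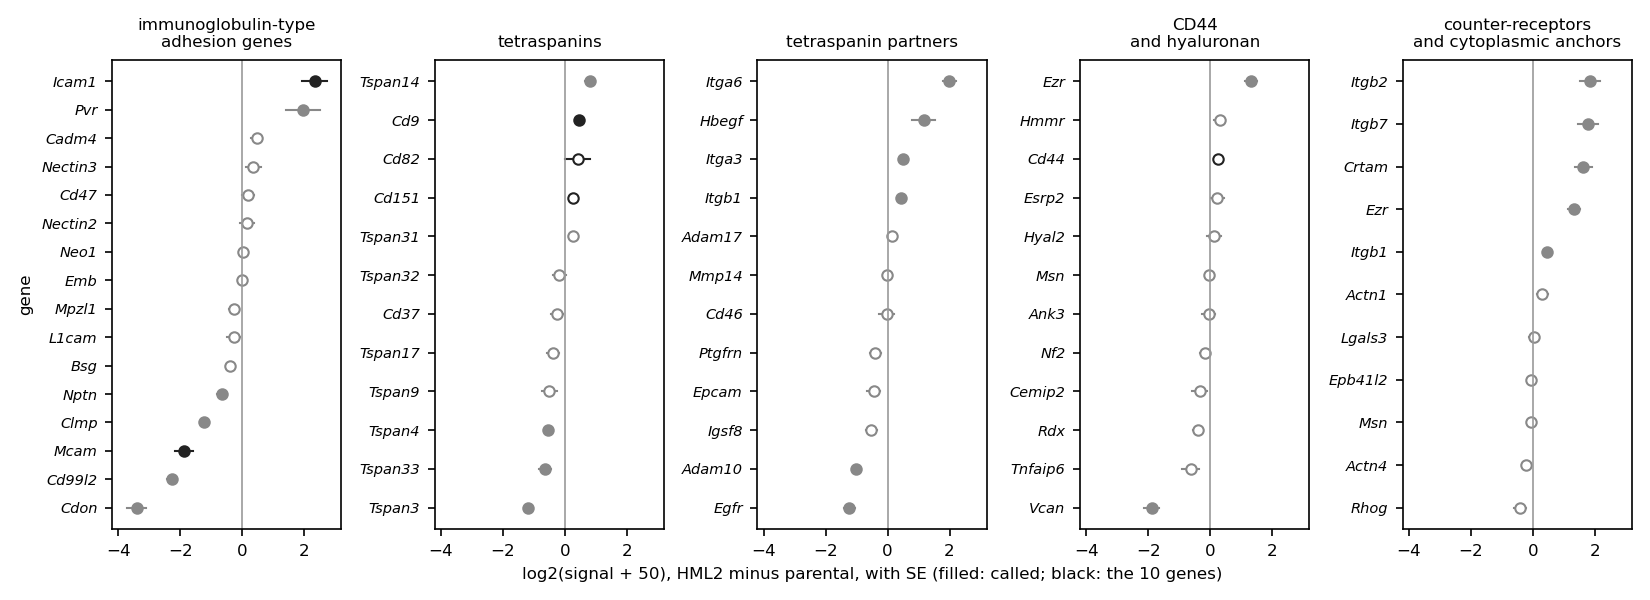
Differences on the log2(signal + 50) scale, HML2 minus parental, with standard errors, for the tested genes of 5 lists; filled points are called and black points belong to the 10 genes. Called genes lie on both sides of 0 in 4 lists, from Cdon (-3.41) to Icam1 (2.33), and only above 0 among counter-receptors and anchors.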

How the data were processed

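RNA from 3 parental and 3 HML2 samples was hybridised to Affymetrix Mouse Genome 430 2.0 arrays. Deposited was a linear intensity for each probe set on each array, which per the submitters' processing notes the authors obtained from MAS5 (version and settings: not given in the sources used here). Scaling removes differences in total RNA, and there were no detection calls.

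Signals of 45101 probe sets (64 controls) were turned into log2(signal + 50). Names came from the 2016 array annotation, with 1 symbol for 34945 probe sets, updated through RefSeq (34741 found). Genes with a mean signal of at least 100 were kept, 9361 in all, each by its brightest probe set. limma 3.58.1 in R 4.3.3 (lmFit, eBayes with intensity trend) compared the groups without covariates, with Benjamini-Hochberg adjustment. A run on simulated data drew each array independently, so it does not cover the shared deviation of replicate numbers given below. Member genes and lists were chosen with earlier results of these data known.

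Arrays of the same replicate number deviated together (correlations 0.45, 0.34 and 0.24 across genes, all above 0.1; its meaning is not in the labels, and parental 2 with HML2 3 also gave 0.24). The fit with the number as a block was an alternative. Named were the 10 genes, called genes of each list, up to 4 by size, and the brightest otherwise, the 3 brightest genes of each marker list, and the 3 genes most like Icam1 and Mcam. Nptn, Itga3, Itgb1, Cd47, Msn, Rdx, Cdh5, Cldn5, Cspg4, Des, Cnn1, markers at background and chromosomal neighbours were added after their values were seen. The same holds for Postn, Col1a1, Lum and Dcn. Protein sequences were not used here.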

Additional observations from a re-analysis of the deposited data

How the results depend on the processing

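Alternatives changed the offset, signal bound, normalization, variance model, probe set rule, replicate block and arrays used; leaving out both arrays numbered 1 was added after seeing the data. Icam1 stayed called higher in all 18 alternatives (1.92 to 2.67, adjusted p up to 0.024) and Mcam lower in all 17 that tested it (-2.75 to -1.33, adjusted p up to 0.018). The count of the 10 genes called higher was 2, and 1 to 2 when single arrays were left out. It was 3 without a signal bound, with array weights and without both arrays numbered 1. It was also 3 with the mean over probe sets or the probe set of largest interquartile range. The count called lower was 1, and 0 with a signal bound of 200, which left Mcam untested. With the replicate block no call of the 10 genes changed (2 higher, 1 lower; adjusted p of 7.5e-05 for Icam1), and 3501 genes were called in all. Cd82 ran from -0.093 to 0.69 when single arrays were left out, and Cd44 was called with the probe set of largest interquartile range (0.84). Genes called in all numbered 2550 and became 5053 with array weights and 3536 without both arrays numbered 1. They numbered 3078 with the probe set of largest interquartile range. Without single arrays they numbered 1385 to 3422 (1385 without parental array 3, 1671 without HML2 array 3). In the CD44 and hyaluronan list 2 genes were called, against 7 with array weights, 4 with the probe set of largest interquartile range, 6 without both arrays numbered 1 and 2 to 5 without single arrays. Tetraspanins had 5 called, against 10 with array weights, 8 without both arrays numbered 1 and 3 to 6 without single arrays. Tetraspanin partners had 6, against 3 without a signal bound and 3 to 8 without single arrays. The cause of these changes was not tested. Signals near the bacterial controls limit what can be read for Icam2, Vcam1, Alcam and Cadm1.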

Other observations

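Icam1 lies on mouse chromosome 9 beside its relatives Icam4 and Icam5 in the RefSeq gene order. Icam4 averaged 42.6 ± 29.2 on parental and 103 ± 11.9 on HML2 arrays (SD, n = 3), and Icam5 21.2 ± 19.3 and 12.1 ± 0.916, both below the signal bound and not tested. On the other side, Mrpl4 (0.13), S1pr2 (0.28) and Dnmt1 (-0.31) were tested and not called, apart from Dnmt1 with the replicate number as a block (limma adjusted p = 0.023). Next to Icam2 on chromosome 11, Ern1 (-0.27) and Tex2 (-0.12) were not called, and the endothelial gene Pecam1 was at background. The neighbours of Mcam that were tested, Rnf26 (-0.30) and Cbl (0.27), were not called.

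The genes whose log2 values over the 6 arrays were most like those of Icam1, among 9360 compared, were Itgb2, the leukocyte integrin beta chain (Pearson r = 0.998), the glutathione transferase gene Mgst2 (775 ± 285 and 2237 ± 749; r = 0.998) and the gamma-secretase subunit gene Psenen (4048 ± 219 and 5201 ± 368; r = 0.996). Those most like Mcam were the interleukin 1 receptor gene Il1r1 (643 ± 105 and 358 ± 17.5; r = 0.995), Atg13, an autophagy gene (272 ± 36.2 and 175 ± 3.09; r = 0.995), and the sialyltransferase gene St3gal5 (1183 ± 333 and 315 ± 40.4; r = 0.993). These values combine the group difference with the spread among arrays and are a description.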
